A study of Mus musculus with 32 samples.

Results

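Liver and kidney were compared gene by gene in RNA pulled down from mouse tissue with an antibody against N6-methyladenosine (m6A). A gene of the table was taken into the comparison when its log2 normalised count reached at least 1 in liver or in kidney, both in formalin-fixed, paraffin-embedded (FFPE) tissue and in Frozen tissue, which 10676 of 27179 genes did. Of these, 377 belong to 10 lists of metabolic genes that hold 385 genes in all. Genes were called shared when all 4 liver and kidney values were at least log2 3 and the organs lay within 2-fold of each other in both preservations. They were called liver-parted or kidney-parted when that organ was at least 2-fold higher in both preservations.

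The 4 groups were FFPE liver, Frozen liver, FFPE kidney and Frozen kidney, made from mouse organs that were either fixed in 10% formalin and embedded in paraffin or flash frozen. The labels list 2 m6A samples for each group, while the table holds 1 column for each with no mark of which it is, so each group counts as 1 library here. All 4 were pulled down with the m6A antibody from RNA sheared by ultrasound, and no treatment or genotype is named for any of them. Strain, sex, age and the number of animals are not given in the sources used here. Brain and heart, prepared in the same 2 ways, made up the other 4 libraries of the table and served as the outgroup for genes that liver and kidney have in common.

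m6A is the most common internal mark of messenger RNA, set by a methyltransferase complex around METTL3 and METTL14, removed by FTO and ALKBH5 and read by YTH-domain proteins that influence the decay and translation of the RNA. Liver and kidney are both epithelial organs rich in mitochondria and peroxisomes, and they are the main sites of glucose synthesis in the body. Hepatocytes add urea synthesis, bile acid synthesis and the secretion of plasma proteins, while the nephron filters blood and recovers solutes along the proximal tubule, the loop of Henle, the distal tubule and the collecting duct. No input libraries entered the comparison. A level therefore reflects both how abundant a transcript was and how much of it carried the mark, which were not separated. In organ samples, fewer cells of a type and less RNA per cell cannot be told apart either.

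The log2 levels are CPM (counts per library, scaled to one common size) with 0.5 added to each count and a scaled library size, and total gene counts ran from 9603050 to 21523379 over the 8 libraries. Between 65.6% and 79.5% of the counts of the 4 liver and kidney libraries came from ribosomal transcripts. A count of 3 corresponded to log2 -0.86 in FFPE liver, -1.52 in Frozen liver, -2.48 in FFPE kidney and -2.65 in Frozen kidney, so values near or below these rest on very few reads. The 10 hepatocyte markers, among them Alb and Cps1, summed to 29766 and 33206 CPM in FFPE and Frozen liver, against 219 and 366 in FFPE and Frozen kidney. The 10 nephron markers, among them Lrp2 and Umod, summed to 11.05 and 10.2 CPM in FFPE and Frozen liver, against 3465 and 3445 in FFPE and Frozen kidney. All 10 markers of each list passed the test in the direction of their organ. Xist, the RNA of the inactive X chromosome, was high in both FFPE libraries and low in both Frozen libraries, while Y-linked genes were detected in all 4, so FFPE and Frozen tissue also differed in sex-linked RNA. The metabolic counts are therefore also given below without the sex-biased genes.

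The organ difference was tested with limma over all 14864 genes with enough signal, with an additive term for organ and one for preservation on the 8 libraries and Benjamini-Hochberg adjustment. Since each group was 1 library, the p-values measure how alike FFPE and Frozen tissue behaved and not the spread between animals. Among the 10676 genes compared, 1614 were called higher in liver and 2163 higher in kidney at an adjusted p under 0.05, while 6899 were not called. Over all genes tested, 11.5% were called higher in liver and 17.0% higher in kidney. Of all calls, 40.3% were thus higher in liver, a share that became 50.2% with each library centred on its median, 8.47% with scaling by total gene counts and 11.1% with scaling by gene counts outside the ribosomal genes. Of the genes compared, 583 lay below log2 1 in both kidney libraries and 1197 below log2 1 in both liver libraries. Those genes entered through 1 organ and had to differ, so the counts describe the selection and nothing is read from their excess over the background. The liver minus kidney difference had a median of -0.03 over the genes compared and of -0.09 over all genes tested. The median over all genes tested became -1.38 with scaling by total gene counts and -1.0 with scaling by counts outside the ribosomal genes. Each of these scalings moves every liver minus kidney difference by 1 constant, so all lists and genes shift with it. Under quantile normalisation the median of all genes was 0.02 while that of the glutathione and antioxidant list turned to -0.17 and that of the tricarboxylic acid cycle was -0.43. Fitted differences of genes with few or no counts in an organ depend on the 0.5 counts added and are not bounds.

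FFPE and Frozen tissue gave much the same ranking of the genes between the organs. Across the 10676 genes, the liver minus kidney differences in the 2 preservations had a Pearson r of 0.918 and a Spearman rho of 0.828, which are descriptions since genes of the same 4 libraries are not independent. The sign was the same in both for 8513 genes. By the 2-fold limit, 2541 of the 10676 genes were shared, 1285 were liver-parted, 1766 were kidney-parted and 24 were at least 2-fold higher in one organ in FFPE tissue and in the other organ in Frozen tissue. The remaining 5060 lay between these classes. The liver-parted, kidney-parted and shared genes made up 8.65%, 11.9% and 17.1% of all 14864 genes tested. The limma fit uses the same values as the 2-fold limit, so that 1160 of the liver-parted and 1659 of the kidney-parted genes were also called is no independent check.

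**Figure D1:**
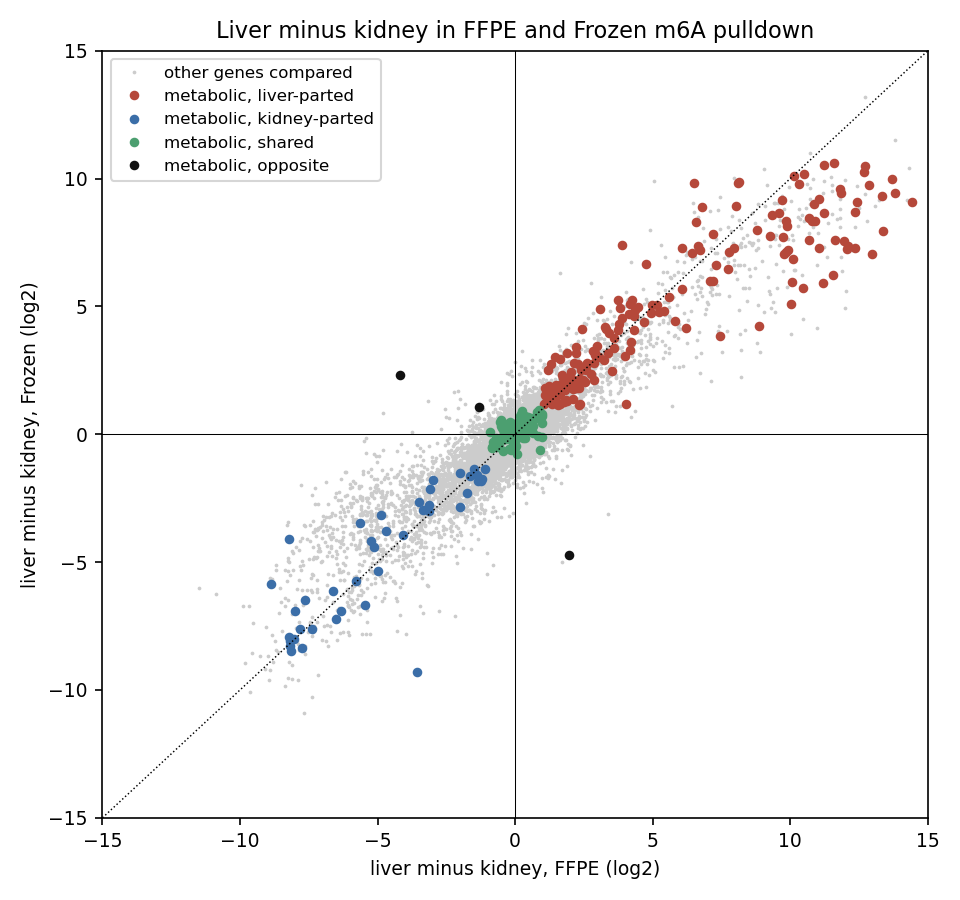
Liver minus kidney difference in log2 normalised count in FFPE tissue (horizontal axis) and in Frozen tissue (vertical axis) for the 10676 genes compared, each point a gene, with colours for shared and parted metabolic genes. The points follow the diagonal (r 0.918), with the shared metabolic genes inside the 2-fold square and the parted ones along both arms.

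With the deposited scaling, most of the metabolic genes that parted the organs were higher in liver. Of the 377 metabolic genes compared, 171 were liver-parted, 41 kidney-parted and 104 shared, 3 pointed in opposite directions in the 2 preservations and 58 lay between. The limma test called 182 of them higher in liver and 46 higher in kidney, with the background of 11.5% and 17.0% given above. With scaling by total gene counts, 114 were liver-parted and 112 kidney-parted, and 117 were called each way. The lists were chosen with earlier results of these data known, so the counts describe these genes and not metabolism at large. The median difference of the liver-parted metabolic genes was log2 4.43, and 66 of the 171 were beyond 64-fold. The median of the kidney-parted ones was log2 -4.71, and 17 of the 41 were beyond 64-fold. All 10 lists together had a median difference of log2 1.0, with lists running from -0.09 for the tricarboxylic acid cycle to 5.71 for lipoproteins, bile acids and cholesterol.

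**Figure D2:**
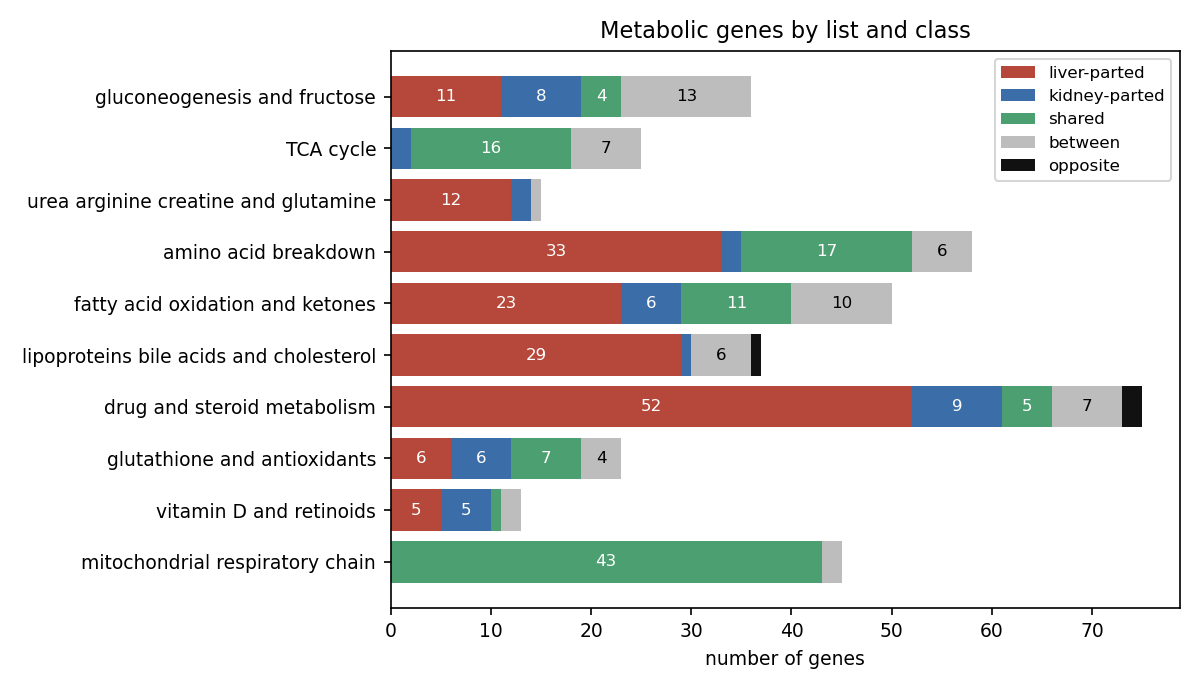
Number of genes of each metabolic list (rows) that were liver-parted, kidney-parted, shared, between these classes or opposite in the 2 preservations, as stacked bars along the horizontal axis. The respiratory chain is nearly all shared (43 of 45), while lipoproteins and bile acids have 29 liver-parted genes of 37 and no shared one.

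The respiratory chain had the highest share of genes in common among the 10 metabolic lists. Of its 45 nuclear-encoded subunits, 43 were shared, and the fitted differences lay between log2 -0.57 and 0.84. The limma test called 0 higher in liver and 0 higher in kidney, with 1 in each direction at an unadjusted p under 0.05. The voom fit and the fit to the 4 liver and kidney libraries alone each called 1 higher in liver. Quantile normalisation called 6 higher in kidney, centring on the median called 2 higher in liver, and scaling by total gene counts or by counts outside the ribosomal genes called 38 and 40 higher in kidney. Atp5a1, the alpha subunit of the ATP synthase, had 7.56 in FFPE and 7.97 in Frozen liver, against 7.84 in FFPE and 7.88 in Frozen kidney. Liver and kidney overlapped in Atp5a1. Atp5b, its catalytic beta subunit, had 7.56 in FFPE and 7.89 in Frozen liver, against 8.27 in FFPE and 8.32 in Frozen kidney, a difference of -0.57 ± 0.23 (SE). Both kidney values of Atp5b were above both liver values, but the gene did not pass the test (adjusted p = 0.099). Uqcrq, a small subunit of complex III, stood at the other end of the list with 5.13 in FFPE and 5.61 in Frozen liver, against 4.32 in FFPE and 4.75 in Frozen kidney (0.84 ± 0.29, adjusted p = 0.063).

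Most of the shared subunits were not called against the mean of brain and heart. For the mean of liver and kidney against that of brain and heart, 24.4% of all genes tested were called higher and 28.3% lower. Calls and differences against brain and heart use their mean here and below, so either organ alone can lie as high as liver and kidney. The median of the 45 subunits was 4.64 in FFPE and 5.01 in Frozen liver and 4.51 in FFPE and 4.89 in Frozen kidney. It was 3.33 in FFPE and 4.57 in Frozen brain, but 5.79 in FFPE and 6.05 in Frozen heart. Of the 43 shared subunits, 2 were called higher in liver and kidney, 6 lower and 35 not called. The 2 were Cox6a1 and Cox8a, the forms of cytochrome c oxidase subunits known from tissues other than striated muscle. Cox6a1 had 5.26 in FFPE and 5.80 in Frozen liver and 5.13 in FFPE and 5.88 in Frozen kidney, against 4.10 in FFPE and 5.25 in Frozen brain and 3.11 in FFPE and 2.92 in Frozen heart (1.67 ± 0.20, adjusted p = 0.00019). Heart was low for Cox6a1 in both preservations and brain was below liver and kidney in FFPE tissue. Cox8a had 4.38 in FFPE and 4.04 in Frozen liver and 4.80 in FFPE and 4.68 in Frozen kidney, against 3.89 in FFPE and 4.70 in Frozen brain and 3.01 in FFPE and 1.99 in Frozen heart (1.08 ± 0.26, adjusted p = 0.0075).

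The tricarboxylic acid cycle was shared for the most part, and more of its genes were called higher in kidney than in liver. Of 25 genes, 16 were shared, 2 were called higher in liver and 8 higher in kidney. With scaling by total gene counts these were 0 and 19. Sdha, the flavoprotein of succinate dehydrogenase, had 6.82 in FFPE and 7.40 in Frozen liver, against 6.67 in FFPE and 6.91 in Frozen kidney. Mdh1, the cytosolic malate dehydrogenase, is a shared gene of the glucose and fructose list and not 1 of these 25. It had 6.86 in FFPE and 7.33 in Frozen liver, against 6.91 in FFPE and 7.23 in Frozen kidney. The ranges of the organs overlapped in both genes, though within each preservation liver was higher for Sdha, by 0.15 in FFPE and 0.48 in Frozen tissue. Their fitted differences were 0.32 ± 0.17 and 0.02 ± 0.27, and neither passed the test. All 3 subunits of the NAD-dependent isocitrate dehydrogenase were measured. Idh3g had 2.91 in FFPE and 3.09 in Frozen liver, against 4.29 in FFPE and 4.67 in Frozen kidney (-1.48 ± 0.19, adjusted p = 0.00056). Both kidney values of Idh3g were above both liver values. Idh3a differed by -1.0 ± 0.20 (adjusted p = 0.0054), whereas Idh3b, with a difference of 0.16 ± 0.17, did not pass. Ogdh, the first subunit of the oxoglutarate dehydrogenase complex, was called higher in kidney with a difference of -0.98. Idh1, the cytosolic NADP-dependent enzyme, and Suclg2, the GTP-forming succinyl-CoA ligase subunit, were the genes called higher in liver, by 0.92 and 0.81, with a sign that turned with scaling by total gene counts. Against the mean of brain and heart, the 16 shared genes of the cycle held 3 called higher and 6 called lower. The lower ones were led by Cs, citrate synthase (-1.12 ± 0.14). The median of all 25 genes was 6.36 in FFPE and 6.37 in Frozen heart, but 3.84 in FFPE and 4.08 in Frozen brain.

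Shared genes of amino acid breakdown set liver and kidney apart from brain and heart. All 17 shared genes of this list were called higher in liver and kidney, with a median of log2 2.64, against a median of -0.06 over all genes tested. Over the shared metabolic genes as a whole, 44 of 104 (42.3%) were called higher and 13 (12.5%) lower than brain and heart. Among all 2541 shared genes these were 827 (32.5%) and 456 (17.9%). Log2 3 was required in liver and kidney but not in brain and heart, so genes low in brain and heart could enter and genes low in liver and kidney could not. The counts are therefore set beside those of all shared genes, which passed the same limit. A difference beyond 64-fold was reached by 10 of the 104 shared metabolic genes (9.62%) and by 29 of the 2541 shared genes (1.14%).

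Hoga1, the last enzyme of hydroxyproline breakdown, had 5.29 in FFPE and 5.48 in Frozen liver, against 4.30 in FFPE and 5.04 in Frozen kidney. Aass, which starts lysine breakdown, had 6.81 in FFPE and 7.0 in Frozen liver, against 6.18 in FFPE and 6.61 in Frozen kidney, with a difference of 0.51 ± 0.87 (adjusted p = 0.72). Pipox, the peroxisomal oxidase of pipecolic acid, had 5.66 in FFPE and 5.25 in Frozen liver, against 5.13 in FFPE and 5.11 in Frozen kidney. In Hoga1, Aass and Pipox both liver values were above both kidney values, by margins within 2-fold in each preservation. Hoga1, Aass and Pipox stood 7.86, 7.50 and 8.53 log2 units above brain and heart. Branched-chain amino acid breakdown was shared in Bckdha, Dbt, Ivd, Mccc1, Mccc2, Hibadh and Acadsb. Of these, Mccc1, a subunit of methylcrotonyl-CoA carboxylase, was called higher in kidney (-0.68 ± 0.21, adjusted p = 0.044).

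Mitochondrial and peroxisomal fatty acid oxidation was shared in 11 of 50 genes and called higher in liver in 29 and higher in kidney in 5. Scaling by total gene counts gave 7 and 11, and a list median of -0.19 in place of 1.10. Slc27a2, the very long-chain acyl-CoA synthetase of peroxisomes and endoplasmic reticulum, had 8.26 in FFPE and 9.27 in Frozen liver and 8.93 in FFPE and 9.75 in Frozen kidney, against -0.07 in FFPE and 0.13 in Frozen brain and -1.08 in FFPE and -1.0 in Frozen heart. Kidney was higher in both preservations. Liver minus kidney was -0.67 in FFPE tissue (95% counting interval -0.75 to -0.60) and -0.49 in Frozen tissue (-0.53 to -0.45), yet the gene did not pass the test (adjusted p = 0.13). Ehhadh, the bifunctional enzyme of peroxisomal beta-oxidation, had 6.63 in FFPE and 8.05 in Frozen liver, against 6.47 in FFPE and 8.10 in Frozen kidney. In both organs the Frozen library of Ehhadh was above the FFPE library, and the organs overlapped. Acadm, the medium-chain acyl-CoA dehydrogenase, had 6.29 in FFPE and 7.82 in Frozen liver, against 6.69 in FFPE and 7.70 in Frozen kidney. Cpt1a, which loads fatty acids onto carnitine for import, had 6.67 in FFPE and 7.94 in Frozen liver, against 6.42 in FFPE and 7.05 in Frozen kidney. Acat1, the mitochondrial thiolase of ketone and isoleucine metabolism, had 6.27 in FFPE and 7.53 in Frozen liver, against 6.05 in FFPE and 7.11 in Frozen kidney. In Acadm, Cpt1a and Acat1, too, each Frozen value was above the FFPE value of its organ, and the ranges of the organs overlapped. Within each preservation liver was higher for Cpt1a, by 0.25 in FFPE and 0.89 in Frozen tissue. The same held for Acat1, by 0.23 in FFPE and 0.42 in Frozen tissue, but not for Acadm. Against the mean of brain and heart, 9 of the 11 shared genes of this list were called higher and 1, Hadhb, was called lower (-0.66 ± 0.17). Heart itself was not low for Acadm, with 7.27 in FFPE and 7.75 in Frozen heart, against 2.46 in FFPE and 2.88 in Frozen brain. Acat1 likewise had 6.26 in FFPE and 6.79 in Frozen heart, against 3.68 in FFPE and 4.37 in Frozen brain.

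Of the drug and steroid genes, 5 were shared, and all 5 were called higher than brain and heart, with a median of log2 8.63 and a lowest difference of 2.74 in Hsd17b11. Ugt3a2, a glycosyltransferase of the endoplasmic reticulum, had 6.39 in FFPE and 6.24 in Frozen liver and 6.62 in FFPE and 6.83 in Frozen kidney, against -5.43 in FFPE and -6.10 in Frozen brain and -4.54 in FFPE and -4.70 in Frozen heart. Ugt3a2 had no count in any brain or heart library and was at least 478-fold higher in liver and kidney, with brain and heart taken at 3 counts per library (adjusted p = 2.3e-07). Cyp2j5, a cytochrome P450 that acts on arachidonic acid, had 7.46 in FFPE and 7.06 in Frozen liver, against 7.60 in FFPE and 7.69 in Frozen kidney. Kidney was slightly the higher organ for Ugt3a2 and Cyp2j5, without overlap. Its relative Cyp2j13 was kidney-parted, with -2.08 in FFPE and -1.52 in Frozen liver, against 5.54 in FFPE and 4.97 in Frozen kidney. Ugt3a1 had 3.35 in FFPE and 4.40 in Frozen liver, against 4.0 in FFPE and 4.83 in Frozen kidney. Fmo1, a flavin monooxygenase, had 6.23 in FFPE and 6.02 in Frozen liver, against 6.16 in FFPE and 6.05 in Frozen kidney. The ranges of the organs overlapped in Ugt3a1 and in Fmo1. Within each preservation Ugt3a1 was higher in kidney, with liver minus kidney at -0.65 in FFPE and -0.44 in Frozen tissue. Hsd17b11, a steroid and lipid-droplet dehydrogenase, was within 2-fold but was called higher in liver (0.91 ± 0.22, adjusted p = 0.017). It belongs, with Etfa and Aldh4a1, to the 3 shared metabolic genes called higher in liver, all of which changed sign with scaling by total gene counts, and Mccc1, Pdk2 and Dlat are the 3 called higher in kidney.

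**Figure D3:**
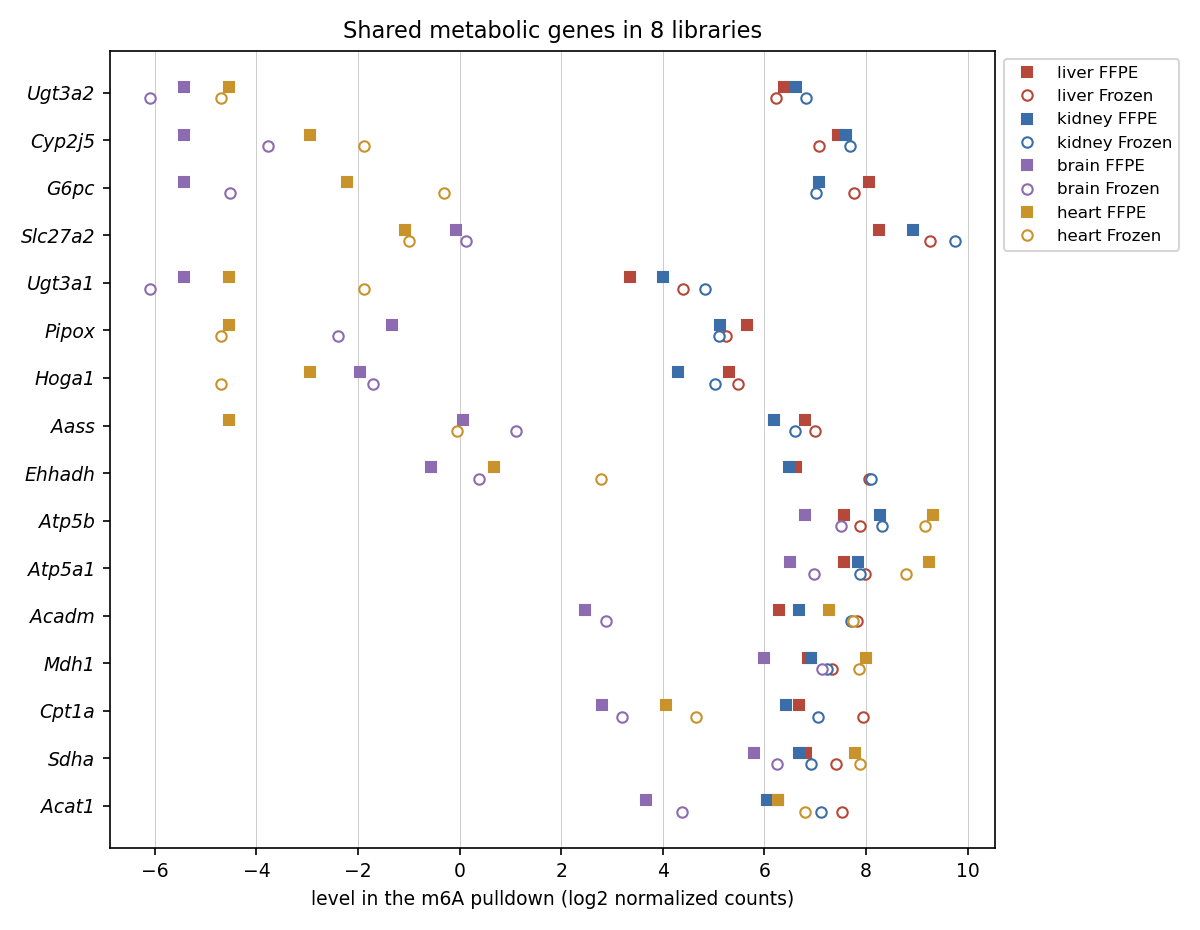
Log2 normalised counts (horizontal axis) of shared metabolic genes (rows) in FFPE and Frozen liver, FFPE and Frozen kidney and, for comparison, brain and heart. Liver and kidney points of a gene lie together, whereas brain and heart lie far to the left for G6pc, Slc27a2, Cyp2j5 and Ugt3a2. For Atp5b, Sdha and Mdh1, heart lies to the right of liver and kidney. Brain lies to their left for these genes, except that Frozen brain lies to the left of only some of them for Mdh1.

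Genes of glucose synthesis were far above brain and heart in both organs, while the enzymes of glycogen storage parted them. G6pc, the catalytic subunit of glucose-6-phosphatase, had 8.07 in FFPE and 7.76 in Frozen liver and 7.08 in FFPE and 7.02 in Frozen kidney, against -5.43 in FFPE and -4.51 in Frozen brain and -2.22 in FFPE and -0.31 in Frozen heart. The liver was higher by log2 0.99 in FFPE tissue (95% counting interval 0.90 to 1.08), at the edge of the 2-fold limit, and by 0.73 in Frozen tissue (0.65 to 0.81). Pck1, the cytosolic phosphoenolpyruvate carboxykinase, had 10.01 in FFPE and 10.24 in Frozen liver, against 8.30 in FFPE and 9.72 in Frozen kidney. Fbp1, fructose-1,6-bisphosphatase, had 7.15 in FFPE and 7.75 in Frozen liver, against 6.32 in FFPE and 6.56 in Frozen kidney. Neither Pck1 (1.11 ± 0.80) nor Fbp1 (1.01 ± 0.64) passed the test, though liver was the higher organ in both preservations for each. Pcx, pyruvate carboxylase, was called higher in liver by 1.05 ± 0.26 (adjusted p = 0.016), a sign that turned with scaling by total gene counts. G6pc, Pck1, Fbp1 and Pcx stood 10.60, 12.45, 11.55 and 3.71 log2 units above brain and heart.

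Of the 36 genes of the glucose and fructose list, 13 were called higher in liver and 8 higher in kidney, with a median difference of 0.92 that became -0.37 with scaling by total gene counts. Gys2, the liver glycogen synthase, and Pygl, the liver glycogen phosphorylase, differed by 3.99 ± 0.93 and 4.55 ± 0.27. In kidney the general isoforms were the higher ones. Hk1 had -0.49 in FFPE and 2.18 in Frozen liver, against 5.13 in FFPE and 5.64 in Frozen kidney. Gys1 had 0.24 in FFPE and 1.03 in Frozen liver, against 3.32 in FFPE and 3.17 in Frozen kidney. Neither gene overlapped between the organs. Hk1 was below kidney in both liver libraries and lower in FFPE than in Frozen liver. Ldhb, the lactate dehydrogenase subunit common in oxidative tissues, had 1.69 in FFPE and 0.32 in Frozen liver, against 7.13 in FFPE and 6.99 in Frozen kidney (-6.06 ± 0.43, adjusted p = 3.3e-05). Ldha went the other way, with 6.46 in FFPE and 7.24 in Frozen liver, against 5.75 in FFPE and 5.65 in Frozen kidney (1.15 ± 0.30, adjusted p = 0.021), though its sign turned with scaling by total gene counts. Miox, which opens the ring of myo-inositol and is known from the kidney cortex, had -0.86 in FFPE and -2.01 in Frozen liver, against 7.32 in FFPE and 6.06 in Frozen kidney.

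Genes close to the 2-fold limit show how the border falls. Just inside it were Hoga1 and G6pc, whose larger difference of the 2 preservations was 0.99 and 0.99. Just outside were Acsm5, a medium-chain acyl-CoA synthetase, Sord, sorbitol dehydrogenase, and Eno1, enolase. Their larger differences were 1.0, 1.01 and 1.01.

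Promoters are shown for liver-parted genes that hold a motif of a transcription factor which was itself shared. Hnf4a, an orphan nuclear receptor known to drive metabolic genes in both hepatocytes and proximal tubule, had 7.95 in FFPE and 7.89 in Frozen liver and 7.68 in FFPE and 7.22 in Frozen kidney, against -5.43 in FFPE and -6.10 in Frozen brain and -4.54 in FFPE and -0.61 in Frozen heart. Its difference between the organs was 0.47 ± 0.97. Promoters from 250 bases before to 50 bases after the start site were read from RefSeq (GRCm38.p6, the assembly of mm10) and searched on both strands for the HNF4 motif CAAAGTCCA. The windows below run 5′ to 3′ on the strand of the gene, with the motif in capitals. Cyp3a11 lies at chr5:145879915-145880003 (minus strand) and Cyp8b1 at chr9:121916324-121916412 (minus).
Cyp3a11: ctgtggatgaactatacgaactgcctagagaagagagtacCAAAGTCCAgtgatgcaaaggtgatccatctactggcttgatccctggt
Cyp8b1: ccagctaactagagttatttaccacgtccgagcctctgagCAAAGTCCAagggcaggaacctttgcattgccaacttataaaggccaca
The motif stands 109 bases before the start site in Cyp3a11 and 67 in Cyp8b1. It was held by 17 of 979 liver-parted genes with a promoter in the table (1.74%), 10 of 1333 kidney-parted genes (0.750%) and 6 of 2077 shared genes (0.289%), against 150 of all 27025 genes with a promoter (0.555%). Among metabolic genes, it was in 5 of 130 liver-parted (3.85%), 0 of 37 kidney-parted and 1 of 85 shared promoters (1.18%). A motif of HNF1, another transcription factor, was also planned and is not reported here. A match is a run of letters in this window and does not show binding.

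Nitrogen disposal was mostly a liver programme. Of 15 genes for urea, arginine, creatine and glutamine, 12 were called higher in liver and 2 higher in kidney, with a median difference of 2.69. Scaling by total gene counts gave 8 and 2, with a median of 1.40. Cps1, the carbamoyl phosphate synthetase that starts the urea cycle, had 10.74 in FFPE and 9.60 in Frozen liver, against -2.12 in FFPE and -0.17 in Frozen kidney (11.31 ± 0.67, adjusted p = 1.3e-05). Otc, ornithine transcarbamylase, had 6.68 in FFPE and 6.21 in Frozen liver, against -5.29 in FFPE and -1.37 in Frozen kidney. Arg1, the liver arginase that releases urea, had 8.41 in FFPE and 8.42 in Frozen liver, against -5.29 in FFPE and -1.55 in Frozen kidney. The kidney was low in both preservations for Cps1, Otc and Arg1, and lower in FFPE than in Frozen tissue each time. The kidney held 0 counts of Arg1 in FFPE and 7 in Frozen tissue, and the Frozen difference alone was log2 9.97 (95% counting interval 9.02 to 11.38). The middle of the cycle differed less. Ass1, argininosuccinate synthetase, had 8.92 in FFPE and 7.90 in Frozen liver, against 7.31 in FFPE and 6.71 in Frozen kidney (1.40 ± 0.50, adjusted p = 0.069), and Asl, argininosuccinate lyase, differed by 2.69 ± 0.31. Ass1 stood 8.86 ± 0.35 above brain and heart.

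Amino acid breakdown held 33 liver-parted genes of 58 and 2 kidney-parted ones. The limma test called 31 higher in liver and 4 higher in kidney. Scaling by total gene counts gave 17 and 7, and a list median of 0.23 in place of 1.52. Tat, tyrosine aminotransferase, had 9.76 in FFPE and 7.84 in Frozen liver, against -2.96 in FFPE and -2.65 in Frozen kidney. Tdo2, the tryptophan dioxygenase of liver, had 8.20 in FFPE and 8.98 in Frozen liver, against -2.12 in FFPE and -0.81 in Frozen kidney. Mat1a, which makes S-adenosylmethionine, the methyl donor that m6A synthesis itself uses, had 9.41 in FFPE and 9.93 in Frozen liver, against -1.83 in FFPE and -0.59 in Frozen kidney. No kidney value of these 3 genes came near the liver values. Bhmt and Gnmt, which remethylate homocysteine and methylate glycine, differed by 8.96 ± 0.52 and 6.75 ± 0.74. The 2 kidney-parted genes were Dao and Hao2, peroxisomal oxidases of D-amino acids and of hydroxy acids. Dao had -2.08 in FFPE and -2.01 in Frozen liver, against 5.76 in FFPE and 5.60 in Frozen kidney (-7.72 ± 0.75, adjusted p = 0.00015).

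Lipoproteins, bile acids and cholesterol had no shared gene at all, with 30 of 37 genes called higher in liver. Apoa1, the main protein of high-density lipoprotein, had 10.65 in FFPE and 9.40 in Frozen liver, against -1.20 in FFPE and -0.03 in Frozen kidney. Apoa2 had 10.07 in FFPE and 10.97 in Frozen liver, against -0.08 in FFPE and 0.85 in Frozen kidney. Frozen kidney was the higher kidney library for both. Apob, the structural protein of very low-density lipoprotein, was measurable in both organs, with 12.45 in FFPE and 12.87 in Frozen liver, against 6.84 in FFPE and 7.48 in Frozen kidney (5.50 ± 0.56, adjusted p = 0.00019). Cyp7a1, the rate-limiting enzyme of bile acid synthesis, had 6.81 in FFPE and 5.07 in Frozen liver, against -5.29 in FFPE and -2.28 in Frozen kidney. Cyp8b1, which directs synthesis to cholic acid, had 7.16 in FFPE and 6.45 in Frozen liver, against -5.29 in FFPE and -2.65 in Frozen kidney. Both bile acid enzymes had their higher liver value in FFPE tissue. The bile salt export pump Abcb11 and the uptake carrier Slc10a1 differed by 9.66 ± 1.08 and 8.96 ± 0.93. Hmgcs1, a synthase of the cholesterol pathway, had 7.62 in FFPE and 6.08 in Frozen liver, against 6.57 in FFPE and 6.31 in Frozen kidney, and was not called. The organs overlapped in Hmgcs1. Lrp2, megalin, the endocytic receptor of the proximal tubule, was the kidney-parted gene of the list, with 2.31 in FFPE and 1.65 in Frozen liver, against 10.36 in FFPE and 9.67 in Frozen kidney.

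Of 75 drug and steroid genes, 54 were called higher in liver and 7 higher in kidney, with a median difference of 3.74. Scaling by total gene counts gave 44 and 14, with a median of 2.44. Cyp3a11, the main hepatic CYP3A enzyme of the mouse, had 10.21 in FFPE and 10.07 in Frozen liver, against -2.48 in FFPE and -0.17 in Frozen kidney (11.46 ± 0.68, adjusted p = 1.4e-05). Cyp2c29 had 8.52 in FFPE and 7.67 in Frozen liver, against -5.29 in FFPE and -1.75 in Frozen kidney. The carboxylesterase Ces1c had 9.15 in FFPE and 8.01 in Frozen liver, against -5.29 in FFPE and -1.06 in Frozen kidney. For Cyp2c29 and Ces1c the FFPE kidney value is that of 0 counts. Cyp2e1, which oxidises ethanol, was also measured in kidney, with 10.24 in FFPE and 11.24 in Frozen liver, against 6.49 in FFPE and 7.16 in Frozen kidney (3.91 ± 0.28). On the kidney side, Akr1c21, a hydroxysteroid dehydrogenase, had -1.34 in FFPE and -1.52 in Frozen liver, against 6.41 in FFPE and 6.84 in Frozen kidney. Sult1d1, a sulfotransferase, lay at least 2-fold higher in kidney in both preservations but did not pass the test (-1.48 ± 0.83, adjusted p = 0.23). Members of the Cyp2, Cyp3, Ces1, Mup and Ugt1a families share long stretches of sequence, and the handling of reads with several matches is not stated in these sources.

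Genes of fatty acid and ketone use also parted the organs in both directions. Oxct1, the transferase that lets tissues burn ketone bodies and is known to be lacking in hepatocytes, had 1.83 in FFPE and 1.90 in Frozen liver, against 7.62 in FFPE and 7.66 in Frozen kidney (-5.77 ± 0.16, adjusted p = 7e-07). For Oxct1 the FFPE and Frozen values of an organ lay close together. Acsm2, a medium-chain acyl-CoA synthetase of the proximal tubule, had 1.19 in FFPE and 0.88 in Frozen liver, against 9.34 in FFPE and 9.37 in Frozen kidney. Acsm2, like Oxct1, was high in both kidney libraries and low in both liver libraries. Among liver-parted genes of the list, Fabp1, the liver fatty acid binding protein, had 9.12 in FFPE and 9.39 in Frozen liver, against -2.48 in FFPE and -1.20 in Frozen kidney.

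Glutathione and antioxidant genes had 6 of 23 called higher in each organ. The split was 1 in liver and 8 in kidney with scaling by total gene counts and 10 and 6 with centring on the median. Gpx3, the glutathione peroxidase that the kidney secretes into plasma, had 2.64 in FFPE and 2.08 in Frozen liver, against 10.80 in FFPE and 10.35 in Frozen kidney (-8.21 ± 0.32, adjusted p = 3.5e-06). Ggt1 and Dpep1, brush-border enzymes that break down glutathione, differed by -8.07 ± 0.64 and -6.63 ± 0.90. In liver, catalase (Cat) had 9.20 in FFPE and 8.88 in Frozen liver, against 6.68 in FFPE and 6.84 in Frozen kidney. Selenop, the plasma carrier of selenium, had 9.70 in FFPE and 10.13 in Frozen liver, against 7.41 in FFPE and 7.38 in Frozen kidney. Both were measured well in kidney, and liver lay higher in each preservation. The glutamate-cysteine ligase subunits behaved differently, with Gclc called higher in liver (1.11 ± 0.18, adjusted p = 0.0019, but of the other sign with scaling by total gene counts) and Gclm at 0.12 ± 0.22. The difference between these 2 genes was not tested.

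Vitamin D and retinoid genes also divided, with 5 of 13 called higher in each organ. Scaling by total gene counts gave 3 in liver and 5 in kidney. The plasma carriers were on the liver side. Gc, the vitamin D binding protein, had 10.20 in FFPE and 10.01 in Frozen liver, against 2.17 in FFPE and 1.09 in Frozen kidney. Rbp4 and Ttr, which carry retinol, differed by 10.34 ± 0.56 and 7.63 ± 0.80. The receptors and the enzyme of vitamin D breakdown were on the kidney side. Cubn, cubilin, had -1.34 in FFPE and 1.10 in Frozen liver, against 7.52 in FFPE and 6.97 in Frozen kidney. Amn, its membrane partner, had no count in either liver library and 3.73 in FFPE and 3.31 in Frozen kidney, which is at least 26.1-fold lower in liver with liver taken at 3 counts per library. Cyp24a1, the 24-hydroxylase, had -2.08 in FFPE and -2.74 in Frozen liver, against 4.41 in FFPE and 4.46 in Frozen kidney. Cubn and Cyp24a1 were low in both liver libraries. Vdr, the receptor, differed by -7.45 ± 1.18 (adjusted p = 0.0018).

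Related genes or successive steps often split between the organs. Of 24 pairs with a liver member and a kidney member, 10 had the liver member called higher in liver and the kidney member called higher in kidney. In 7 pairs only the liver member was called towards its intended organ, in 5 only the kidney member and in 2 neither. The 7 include Bhmt2 and Bhmt, which were both called higher in liver. The pairs were picked for known differences between the organs, so the counts describe these genes and are no sample of others. Creatine is made in 2 steps. Gatm, the first, had 1.47 in FFPE and 0.53 in Frozen liver, against 6.72 in FFPE and 4.70 in Frozen kidney. Gamt, the second, had 4.33 in FFPE and 4.70 in Frozen liver, against 0.74 in FFPE and 0.92 in Frozen kidney. Pklr, the liver pyruvate kinase, had 5.39 in FFPE and 6.63 in Frozen liver, against 2.08 in FFPE and 2.52 in Frozen kidney. Pkm, the general form, had 2.17 in FFPE and 2.47 in Frozen liver, against 5.29 in FFPE and 5.47 in Frozen kidney. In both of these pairs the liver member was high in both liver libraries and the kidney member in both kidney libraries.

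The steroid-activating Hsd11b1 was called higher in liver (3.0 ± 0.35) and the inactivating Hsd11b2, which protects the mineralocorticoid receptor in the distal nephron, higher in kidney (-6.15 ± 1.18). Agt, angiotensinogen, and Ren1, renin, differed by 4.06 ± 0.27 and -5.58 ± 1.22. The osmolyte transporters Slc6a12, for betaine, and Slc6a6, for taurine, differed by 4.48 ± 1.12 and -1.80 ± 0.31. Hao1 and Hao2, Slco1b2 and Slco4c1, and Bdh1 and Oxct1 were also called apart. In the pair of Bhmt2 and Bhmt, the intended kidney member Bhmt was itself called higher in liver. Some further members were at least 2-fold higher in the organ not intended in both preservations, but were not called. Arg2 and Cyp27b1 did not reach log2 1 in either organ in both preservations. They were not tested, so their pairs could not be called apart.

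**Figure D4:**
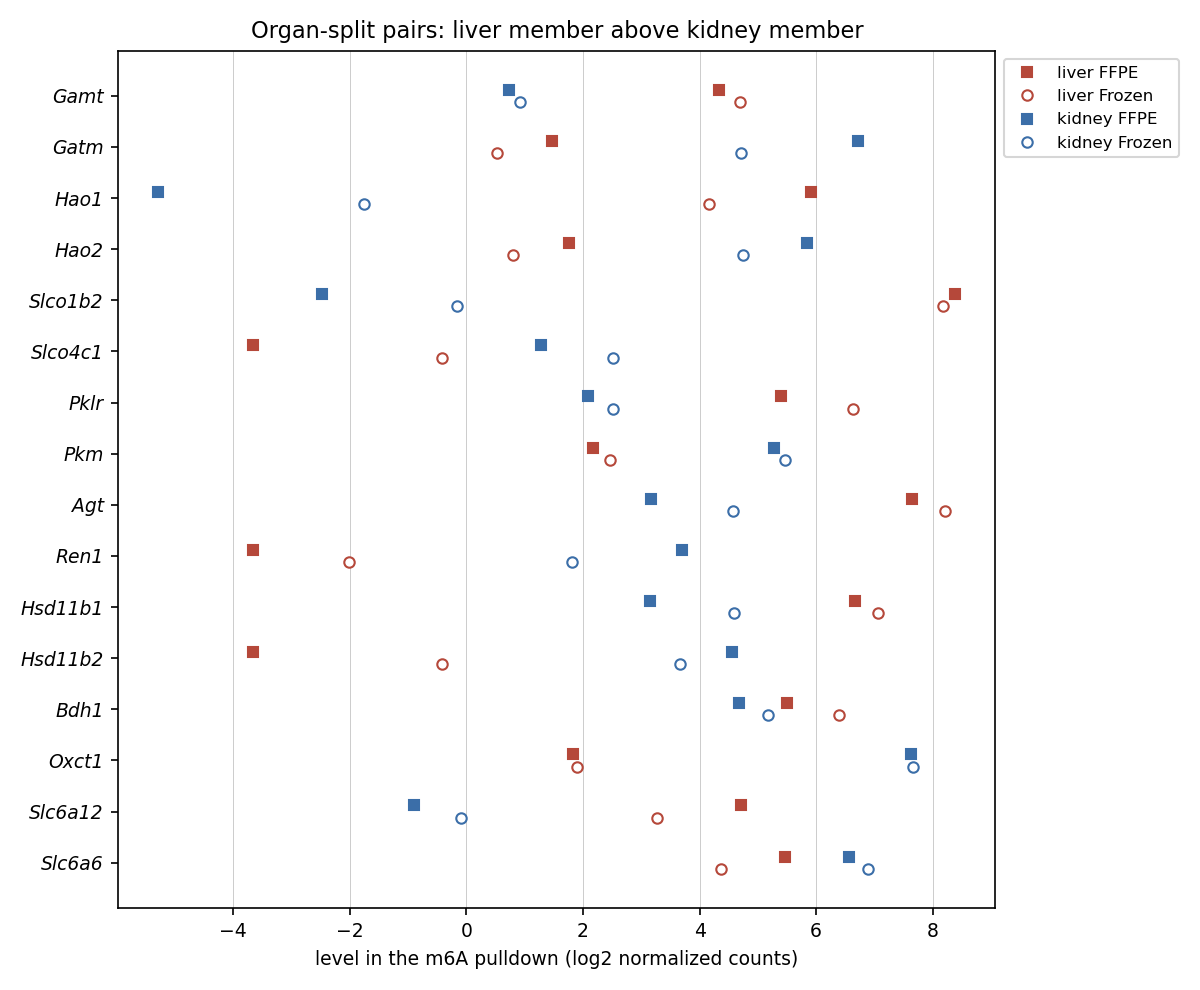
Log2 normalised counts (horizontal axis) of 8 of the 10 pairs called in opposite directions, the liver member of each pair above its kidney member (rows), with FFPE and Frozen liver in red and FFPE and Frozen kidney in blue. Red points lie to the right of blue ones for the liver members, such as Gamt and Hsd11b1, and to the left for the kidney members, such as Gatm and Hsd11b2.

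Outside metabolism, the listed plasma proteins parted the organs nearly without exception. This list and the nephron and podocyte lists below were picked with liver or kidney in mind and with earlier results of these data known. Their counts describe the listed genes and are no test of the organs. Over all genes tested, 11.5% were called higher in liver and 17.0% higher in kidney. Of 49 genes, 47 were liver-parted and 46 were called higher in liver by limma. For kidney the count was 0, also at an unadjusted p under 0.05 and in each of the other fits and scalings, with a median difference of 8.60. Alb, albumin, had 13.91 in FFPE and 14.06 in Frozen liver, against 1.31 in FFPE and 3.78 in Frozen kidney. Serpina3k, a protease inhibitor, had 10.63 in FFPE and 9.71 in Frozen liver, against -3.70 in FFPE and -0.70 in Frozen kidney. For Alb and Serpina3k, Frozen kidney was above FFPE kidney. Vtn, vitronectin, had 8.95 in FFPE and 8.22 in Frozen liver, against -5.29 in FFPE and -0.93 in Frozen kidney. The liver and kidney mean of Vtn was not called apart from that of brain and heart (0.56 ± 0.68). C3 and Trf, complement component 3 and transferrin, differed by 8.26 ± 0.28 and 8.97 ± 0.22. The 3 genes not called were C8a, F13b and Serpinf2, with differences of 2.64 ± 1.09, 1.58 ± 0.89 and 1.55 ± 1.18.

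The 10 largest liver differences among genes at a mean log2 of at least 5 in liver were those of Cyp2a12, Mup3, Serpina3k, Arg1, Ces1c, Vtn, Cyp2c29, Tat, Cyp3a11 and Alb. Cyp2a12, a bile-acid and steroid hydroxylase, had 7.43 in FFPE and 7.76 in Frozen liver and no count in either kidney library, which is at least 1142-fold higher in liver. Mup3, a major urinary protein, had 10.10 in FFPE and 6.04 in Frozen liver, against -3.70 in FFPE and -5.45 in Frozen kidney. The FFPE liver value of Mup3 was far above its Frozen liver value. On the other side stood Kap, Klk1, Kcnj1, Pou3f3, Umod, Slc34a1, Slc12a1, Mep1a, Fxyd2 and Cltrn. Kap, the androgen-regulated protein of the proximal tubule, had 0.24 in FFPE and 0.80 in Frozen liver, against 9.87 in FFPE and 10.86 in Frozen kidney. Klk1, tissue kallikrein, had -2.08 in FFPE and -1.52 in Frozen liver, against 7.73 in FFPE and 7.41 in Frozen kidney. Pou3f3, a transcription factor of nephron development, had 5.27 in FFPE and 5.29 in Frozen kidney and no count in liver, at least 88.4-fold lower there. Cltrn, collectrin, which escorts amino acid transporters to the brush border, had -1.34 in FFPE and -2.74 in Frozen liver, against 6.91 in FFPE and 6.78 in Frozen kidney.

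Along the nephron, every segment was represented, in lists picked for these segments. In the proximal tubule list, 34 of 37 genes were called higher in kidney with a median of -7.0, against 17.0% of all genes tested. Slc34a1, the phosphate carrier, had 0.86 in FFPE and -1.52 in Frozen liver, against 9.24 in FFPE and 8.33 in Frozen kidney. Slc5a2, the glucose carrier SGLT2, had -2.08 in FFPE and -1.52 in Frozen liver, against 6.27 in FFPE and 4.87 in Frozen kidney. Slc22a12, the urate carrier, had -0.20 in FFPE and -1.52 in Frozen liver, against 7.69 in FFPE and 8.09 in Frozen kidney. None of the 3 carriers overlapped between the organs. Spp2, a secreted phosphoprotein, was the shared gene of the list, with 4.21 in FFPE and 3.97 in Frozen liver, against 4.39 in FFPE and 3.70 in Frozen kidney. In the list for the loop of Henle, distal tubule and collecting duct, 33 of 36 genes were called higher in kidney, with a median of -6.07, or -5.61 with genes lacking any liver count set at their bound. Umod, uromodulin of the thick ascending limb, had -0.49 in FFPE and 0.72 in Frozen liver, against 8.60 in FFPE and 9.90 in Frozen kidney. Slc12a3, the thiazide-sensitive carrier of the distal tubule, had -0.49 in FFPE and -1.52 in Frozen liver, against 8.23 in FFPE and 6.55 in Frozen kidney. Aqp2, the vasopressin-regulated water channel of the collecting duct, had -3.66 in FFPE and -2.01 in Frozen liver, against 4.86 in FFPE and 4.55 in Frozen kidney. The liver values of Umod, Slc12a3 and Aqp2 were those of few reads. Of 8 podocyte genes, 7 were called higher in kidney and 1 higher in liver. The 7 included Nphs1, nephrin of the slit diaphragm (-4.36 ± 1.11).

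The transport proteins of hepatocytes had 17 of 34 called higher in liver and 7 higher in kidney. With scaling by total gene counts these were 12 and 12. Slco1b2, the bile acid and drug carrier, had 8.39 in FFPE and 8.17 in Frozen liver, against -2.48 in FFPE and -0.17 in Frozen kidney. Slc22a2, an organic cation transporter, had -3.66 in FFPE and -2.74 in Frozen liver, against 5.17 in FFPE and 5.10 in Frozen kidney. Abcc2, the canalicular export pump that also lies in the brush border, was at least 2-fold higher in liver but was not called (1.72 ± 0.60, adjusted p = 0.062).

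Transcription factors divided into 19 called higher in liver and 25 higher in kidney, of 55. Scaling by total gene counts gave 14 and 30. On the liver side, Nr1i3, the xenobiotic receptor CAR, had 5.92 in FFPE and 6.80 in Frozen liver, against -5.29 in FFPE and -2.65 in Frozen kidney. Cebpa, a factor of hepatocyte metabolism, had 6.98 in FFPE and 7.32 in Frozen liver, against 3.35 in FFPE and 3.47 in Frozen kidney. Ppara, which drives fatty acid oxidation, and its partner Rxra were measured in both organs, with differences of 2.04 ± 0.38 and 1.96 ± 0.19. Foxa2 and Foxa3 differed by 5.87 ± 1.0 and 7.71 ± 1.11. On the kidney side, Tfcp2l1, a factor of the distal nephron, had 1.89 in FFPE and 2.95 in Frozen liver, against 7.26 in FFPE and 6.82 in Frozen kidney. Pax8 had -0.86 in FFPE and -0.08 in Frozen liver, against 4.50 in FFPE and 4.34 in Frozen kidney. Pax2, Emx2 and Hoxa9 had no count in either liver library and were at least 24.3-fold, 22.3-fold and 13.8-fold lower in liver. The shared factors included Hnf4a, Xbp1, Nfe2l2, Nr2f6 and Zbtb20. Of these, Xbp1 was called higher in liver, with a sign that turned with scaling by total gene counts. Hnf4a stood 11.85 ± 0.69 log2 units above brain and heart.

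Hormone systems were distributed over both organs, with 11 of 30 genes called higher in liver and 9 higher in kidney. Scaling by total gene counts gave 9 and 13. Hamp, hepcidin, which controls iron uptake, had 5.53 in FFPE and 6.10 in Frozen liver, against -5.29 in FFPE and -3.87 in Frozen kidney. Igf1 had 7.71 in FFPE and 5.71 in Frozen liver, against 2.26 in FFPE and 2.50 in Frozen kidney. Kl, the co-receptor for FGF23, had -0.20 in FFPE and -0.42 in Frozen liver, against 8.27 in FFPE and 7.26 in Frozen kidney. Klb, its relative for FGF21 and FGF19-type signals, had 4.33 in FFPE and 4.49 in Frozen liver, against -2.96 in FFPE and -3.13 in Frozen kidney. Kl and Klb were thus split, the one high in both kidney libraries and the other in both liver libraries. Pth1r, the parathyroid hormone receptor, and Ace, angiotensin-converting enzyme, were called higher in kidney (-5.27 ± 0.40 and -5.86 ± 0.38). Ghr, the growth hormone receptor, was shared, with 7.81 in FFPE and 6.95 in Frozen liver, against 7.24 in FFPE and 7.83 in Frozen kidney, as were Agtr1a, Enpep, Mme, Insr and Fgf1. Though shared, Insr was called higher in liver, with a sign that turned with scaling by total gene counts.

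Cell types other than hepatocytes and nephron cells also separated the organs. The macrophage markers summed to 86.2 and 76.5 CPM in FFPE and Frozen liver, against 18.9 and 22.1 in FFPE and Frozen kidney, led by the Kupffer cell genes Clec4f, Cd5l and Vsig4. Endothelial markers were close in sum, at 213 and 191 in FFPE and Frozen liver, against 160 and 199.5 in FFPE and Frozen kidney, but their members were not. The sinusoidal genes Clec4g, Stab2 and Lyve1 were called higher in liver (7.47, 4.89 and 4.14), and Emcn, Flt1 and Plvap higher in kidney (-3.09, -1.64 and -1.30). Fibroblast and smooth muscle markers divided into 4 higher in liver, among them the stellate cell genes Lrat and Reln, and 7 higher in kidney. The cholangiocyte list had 3 of 6 markers called higher in kidney and 1 higher in liver. The 3 higher in kidney, Epcam, Krt7 and Spp1, are also known from tubule cells. Adrenal and pancreas markers summed to under 3 CPM in each of the 4 libraries, with Cyp11b2 and Pnmt at 0 in both kidney libraries. Adipocyte markers summed to 74.9 CPM in Frozen liver and 0.158 in FFPE liver, against 5.03 in FFPE and 1.0 in Frozen kidney. In Frozen liver they came from Cidea and Cidec, both also known from hepatocytes in fatty liver, while Adipoq and Plin1 were at 0 there. The part of these cell types in the gene differences was not tested.

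The genes with opposite differences in the 2 preservations numbered 24, of which 2 belong to the male-biased list and 0 to the female-biased list. These 2 are Slco1a1 and Cyp7b1. Slco1a1, an organic anion carrier, had 6.63 in FFPE and 0.06 in Frozen liver, against 4.91 in FFPE and 5.05 in Frozen kidney. Cyp7b1, the oxysterol hydroxylase, had 5.31 in FFPE and 0.88 in Frozen liver, against 3.37 in FFPE and 5.62 in Frozen kidney. For both, FFPE liver was above FFPE kidney and Frozen liver was below Frozen kidney. Slc22a26, an organic anion transporter, had 4.19 in FFPE and -1.16 in Frozen liver, against 0.82 in FFPE and 1.96 in Frozen kidney. Kyat1, a kynurenine aminotransferase, had 5.51 in FFPE and 1.23 in Frozen liver, against 3.83 in FFPE and 3.14 in Frozen kidney. These genes, too, were higher in liver in FFPE tissue and higher in kidney in Frozen tissue. Ugt1a2, a glucuronosyltransferase, had 0.58 in FFPE and 1.10 in Frozen liver, against 4.78 in FFPE and -1.20 in Frozen kidney. Lgals1, galectin 1, had -0.20 in FFPE and 3.73 in Frozen liver, against 1.85 in FFPE and 2.03 in Frozen kidney. Aqp4, a water channel, had 1.76 in FFPE and 4.53 in Frozen liver, against 3.98 in FFPE and 2.87 in Frozen kidney. Ugt1a2, Lgals1, Aqp4 and the glutathione transferase Gsta2 were higher in kidney in FFPE tissue and higher in liver in Frozen tissue.

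Xist differed between the preservations in both organs, while the sex-biased lists did not move one way. The median level of the male-biased list was 4.84 in FFPE and 2.38 in Frozen liver, against 3.65 in FFPE and 4.88 in Frozen kidney. That of the female-biased list was 4.33 in FFPE and 4.30 in Frozen liver, against -3.70 in FFPE and -0.70 in Frozen kidney. Xist had 9.47 in FFPE and -0.87 in Frozen liver, against 8.42 in FFPE and 0.28 in Frozen kidney, so both FFPE libraries were high and both Frozen libraries low. The 4 Y-linked genes Ddx3y, Eif2s3y, Kdm5d and Uty lay between 2.21 and 4.89 in all 4 libraries. Of the genes known as higher in male mice, Serpina1e had 9.84 in FFPE and 0.43 in Frozen liver, against -1.58 in FFPE and -1.55 in Frozen kidney. Mup20 had 7.20 in FFPE and 3.41 in Frozen liver, against no count in either kidney library. Of those known as higher in females, Cyp2b9 had 7.08 in FFPE and 7.65 in Frozen liver, against -3.70 in FFPE and -0.70 in Frozen kidney. With the genes of both sex-biased lists left out, 104 metabolic genes were shared, 165 liver-parted and 37 kidney-parted, against 104, 171 and 41 with them. Neither sex-biased list held a shared gene, so the shared count could not change. Leaving out these listed genes does not address sex differences in other genes. The part of sex in these differences was not tested, and the labels name no sex.

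**Figure D5:**
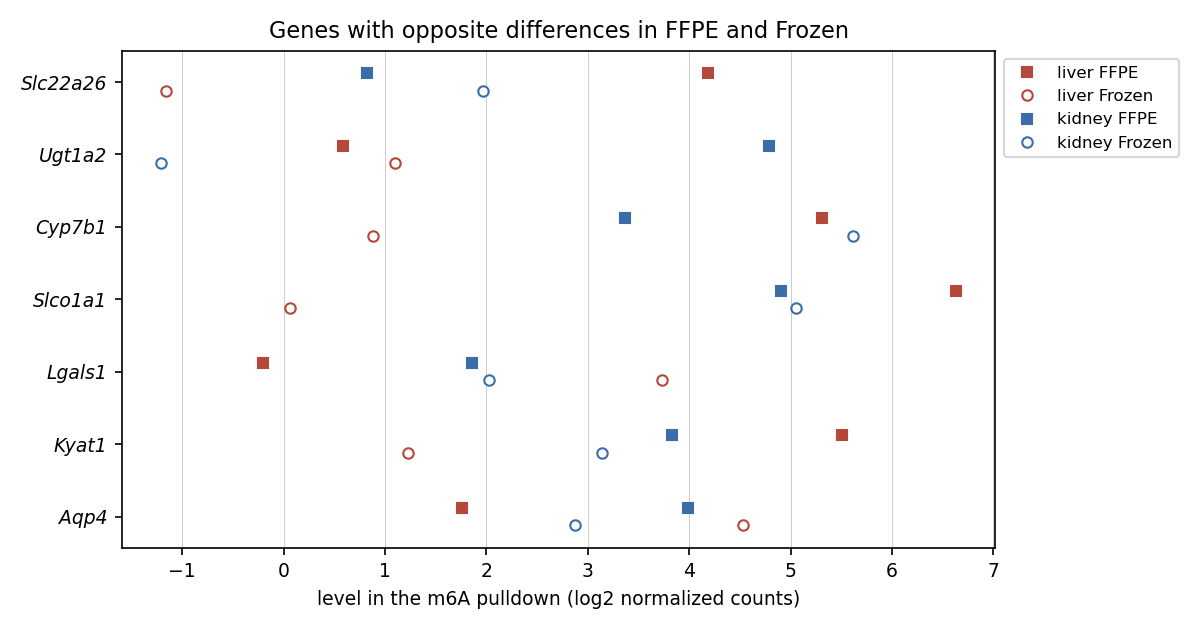
Log2 normalised counts (horizontal axis) of 7 genes with opposite liver minus kidney differences in the 2 preservations (rows), with points for FFPE and Frozen liver in red and FFPE and Frozen kidney in blue. Slco1a1 and Cyp7b1 are far lower in Frozen liver than in FFPE liver, while their kidney values lie closer together.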

How the data were processed

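Libraries of RNA pulled down with an m6A antibody, 2 for each of 8 organ and preservation groups by the labels, came as a deposited table of log2 normalised counts with 1 column per group and 27179 genes. Per the submitters' processing notes, the authors used HISAT2, featureCounts and limma on mm10. The deposited log2 values turned back into whole counts for 100% of entries (within 0.001, relative to 10000 counts for larger counts), as log2 CPM with 0.5 counts added and a scaled library size. No source used here says which of the 2 listed samples a column holds or whether it joins both. The second deposited table holds 8 columns that match no sample listed here and was not used.

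Liver minus kidney and the mean of liver and kidney minus that of brain and heart were fitted with limma 3.58.1 (R 4.3.3), additive in organ and preservation, with a mean-variance trend and 3 residual degrees of freedom, over the 14864 genes with log2 above 0 in at least 2 libraries. Calls are at a Benjamini-Hochberg adjusted p under 0.05. Other steps used Python 3.11.15, pandas 2.3.3, scipy 1.17.1 and matplotlib 3.10.9. Differences within 1 preservation have exact binomial 95% intervals, which cover counting error only, as do floors at 3 counts. On simulated data with 14864 genes and 50 changed genes per size, this liver minus kidney fit recovered 68% of changes of log2 1, 98% of log2 2 and 100% of log2 4 and 6. It called 22 unchanged genes. The changed genes were drawn from genes at a higher mean level, with independent normal noise at the variance of the fit. These rates therefore do not cover genes with few counts or effects particular to 1 library.

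The comparison, the gene lists, the pairs and the rules below were chosen with earlier results of these data known. The text may name genes of the lists and pairs, the 10 largest differences each way among called genes at a mean log2 of at least 5 in the higher organ, the shared metabolic genes highest in level (12) or furthest above brain and heart (10), the 3 nearest the 2-fold limit on each side and up to 8 genes with opposite differences in the preservations. Some genes these rules pick are not reported here. RefSeq (GRCm38.p6) gave gene names and promoters, and 25275 gene IDs matched it. Alternatives changed the scaling, filter, trend, weights, added count, libraries, 2-fold limit and level.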

Additional observations from a re-analysis of the deposited data

Results flagged for a closer look

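Of the 24 genes that pointed in opposite directions in the 2 preservations, 8 are named in the text, where the liver minus kidney difference was at least 2-fold in one direction in FFPE tissue and at least 2-fold in the other direction in Frozen tissue. Each group is 1 library, so the difference between the preservations was not tested. Slc22a26, an organic anion transporter, had log2 3.37 in FFPE and -3.12 in Frozen tissue. Cyp7b1, an oxysterol hydroxylase, had 1.94 in FFPE and -4.73 in Frozen tissue. Slco1a1, an organic anion carrier, had 1.72 in FFPE and -4.99 in Frozen tissue. Kyat1, a kynurenine aminotransferase, had 1.68 in FFPE and -1.92 in Frozen tissue. Ugt1a2, a glucuronosyltransferase, had -4.20 in FFPE and 2.30 in Frozen tissue. Aqp4, a water channel, had -2.22 in FFPE and 1.66 in Frozen tissue. Lgals1, galectin 1, had -2.06 in FFPE and 1.70 in Frozen tissue. Gsta2, a glutathione transferase, had -1.33 in FFPE and 1.08 in Frozen tissue. In the same libraries Xist was high in FFPE and low in Frozen tissue, and the part of sex, of fixation and of single animals in these 8 genes was not tested.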

How the results depend on the processing

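No paired analysis was possible because the columns carry no run number and each group has 1 column. With scaling by total gene counts, limma called 638 genes higher in liver and 6893 higher in kidney, of which 594 and 5393 were among the 10676 genes compared. It called 117 metabolic genes each way, and 114 metabolic genes were liver-parted and 112 kidney-parted. With scaling by gene counts outside the ribosomal genes these were 898 and 7217, 845 and 6042 among the genes compared, 121 metabolic genes higher in kidney and 72 kidney-parted, and 30 shared metabolic genes were lower than in brain and heart. Without the filter 4085 genes were called higher in liver, with the stricter filter 112 metabolic genes were, and without the trend 5 shared metabolic genes were lower than in brain and heart. A 1.5-fold limit left 68 shared metabolic genes and a 4-fold limit 168.

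Leaving out each library in turn gave 936 to 1774 genes higher in liver and 1100 to 2589 higher in kidney, 909 to 1663 and 1047 to 2199 of them among the genes compared, 142 to 192 and 32 to 50 among metabolic genes, and 40 to 47 shared metabolic genes higher and 8 to 19 lower than in brain and heart. The lowest liver and kidney counts came without FFPE kidney (936 and 1100) and without Frozen kidney (1013 and 1417), and the 8 came without FFPE heart or without Frozen kidney.

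Scaling by a count total moves every difference by 1 constant, so genes with small positive differences turn sign by construction. Of 135 calls on genes the text names, 12 turned, none of them called in the new direction. With scaling by total gene counts these were Aldh4a1 (-0.68), Bdh1 (-0.28), Etfa (-0.56), Gclc (-0.18), Hsd17b11 (-0.39), Idh1 (-0.37), Insr (-0.62), Ldha (-0.15), Pcx (-0.24), Sord (-0.52), Suclg2 (-0.48) and Xbp1 (-0.48). With scaling by counts outside the ribosomal genes they were Aldh4a1 (-0.30), Etfa (-0.18), Hsd17b11 (-0.0054), Insr (-0.24), Sord (-0.14), Suclg2 (-0.096) and Xbp1 (-0.10), and with quantile normalisation Aldh4a1 (-0.12) and Sord (-0.42). Of 65 named genes not called, 25 were newly called with each of the 2 count scalings, 18 with voom weights and 13 with quantile normalisation. Of the 135 calls, 32 were lost without FFPE kidney, 24 without Frozen kidney and 25 without the trend, and the cause of these losses was not tested. Chosen after seeing the data, the Frozen pair alone gave 128 shared metabolic genes and the FFPE pair alone 130. Depth limits genes near 3 counts, above all in FFPE liver.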
